A study of Mus musculus with 4 samples.

Results

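The genes described here are 10 genes that move manganese across membranes or need it as a cofactor, in mouse N2a neuroblastoma cells with and without added manganese. They were selected by name: the importers Slc39a14, Slc39a8 and Slc11a2, the exporter Slc30a10, the Golgi and endoplasmic reticulum genes Atp2c1, Tmem165 and Atp13a1, and the enzymes Sod2, Glul and Pc. All 10 had a row among the 22287 genes of the mRNA table, 9 under that symbol and 1, Pc, under its synonym Pcx. N2a is a cell line of neuron-like dividing cells, and the labels give its strain as C57BL/6 and its cell type as neural. The treated cells were grown with 300 µM manganese for 48 h, and no genotype, transgene or other agent is named for either condition. The treatment text is the same for every library, so the titles alone showed which library was treated. Of the 4 libraries of the series, the 2 total RNA libraries are used here, 1 untreated and 1 Mn-treated. With 1 library per condition, no difference has a replicate check, no test between conditions was made, and each ratio compares these libraries.

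Manganese is an essential trace metal that becomes toxic in excess, above all in the brain. Slc39a14 (ZIP14) and Slc39a8 (ZIP8) bring manganese into cells together with zinc and iron, Slc11a2 (DMT1) carries divalent metals with protons, and Slc30a10 exports manganese from the cell. Inside the cell, Atp2c1 pumps manganese and calcium into the Golgi, where Tmem165 also supports manganese supply to glycosyltransferases. Atp13a1 is an ATPase of the endoplasmic reticulum, whose yeast relative affects manganese balance and which is known as a remover of misplaced membrane proteins. Sod2 removes superoxide in mitochondria with manganese in its active site. Glul makes glutamine from glutamate and ammonia and can bind manganese or magnesium, and Pc makes oxaloacetate from pyruvate.

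The untreated library held 13972437 and the Mn-treated library 14606961 reads assigned to mRNA genes. Of the markers of neurons and neuroblastoma, 10 of 12 reached 20 reads in sum over both libraries, and Nefl and Nefm had 0 in both. Tubb3, a neuronal tubulin, had 33400 and 33715 reads, and Hand2, a transcription factor of sympathetic neurons, had 2674 and 2951. Of the 10 measured markers, 2 were past 1.5-fold, both higher with manganese, and 1 was with median-ratio scaling. Among all genes with 20 or more reads, 21.6% were higher and 5.97% lower by 1.5-fold, or 13.4% and 11.3% with median-ratio scaling. The counts of higher markers were thus near the shares of all genes. The 2 markers were Gap43 and Map2. Gap43, a protein of growing axons, had 261 and 578 reads, at a log2 ratio of 1.08. Map2, a dendritic microtubule protein, had 163 and 280, at 0.71. Mycn, a transcription factor of neuroblastoma, was at -0.31 with 1478 and 1243 reads. Of 6 astrocyte markers, 4 had 0 reads in both libraries (Slc1a2, Slc1a3, Aqp4 and S100b), and the list summed to 4.72 and 3.90 CPM (a gene's share of the mRNA reads, in the usual CPM scale), nearly all from Aldh1l1. The 6 fibroblast markers summed to 3.58 and 5.20 CPM with Lum at 0. Col1a1 had 42 and 33 reads, and Col3a1 had 0 and 18. Dcn had 3 and 9 reads, Pdgfra 5 and 11, and Col1a2 0 and 5. The 5 macrophage and microglia markers summed to 0.286 and 1.30 CPM with Ptprc and Aif1 at 0. Cd68 had 3 and 8 reads, Itgam 0 and 6, and Csf1r 1 and 5. The 4 endothelial markers summed to 5.44 and 6.16 CPM, mostly from Pecam1 with 68 and 76 reads. Of 4 hepatocyte markers 3 had 0 reads in both libraries. The part of these marker differences in the results was not tested.

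Of the 10 manganese genes, 8 were measured, meaning that the 2 libraries together held 20 or more of their reads, and the lowest of them had 409. The remaining 2, Slc39a8 and Slc30a10, had 0 reads in both. None of the 8 was past 1.5-fold in either direction when reads were divided by the column totals: 0 were higher and 0 lower. Among all 11872 measured genes, 21.6% were higher with manganese by 1.5-fold or more and 5.97% were lower by as much. The count of manganese genes was also 0 in both directions at 2-fold (7.26% of all genes higher and 1.7% lower), over genes with at least 100 reads (18.8% and 4.65%) and by the authors' deposited table (21.9% and 7.01%). The 8 log2 ratios ran from -0.48 for Glul to 0.43 for Slc39a14, with 4 above 0 and 4 below. Their median was -0.004, against 0.18 for all measured genes. With column totals the middle measured gene thus itself lay above 0, and 6 of the 8 lay below it. Its place depends on the scaling, since scaling to the median ratio of all measured genes puts that gene at 0. These are bulk RNA libraries, in which fewer cells of a type and less RNA per cell cannot be told apart.

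**Figure D1:**
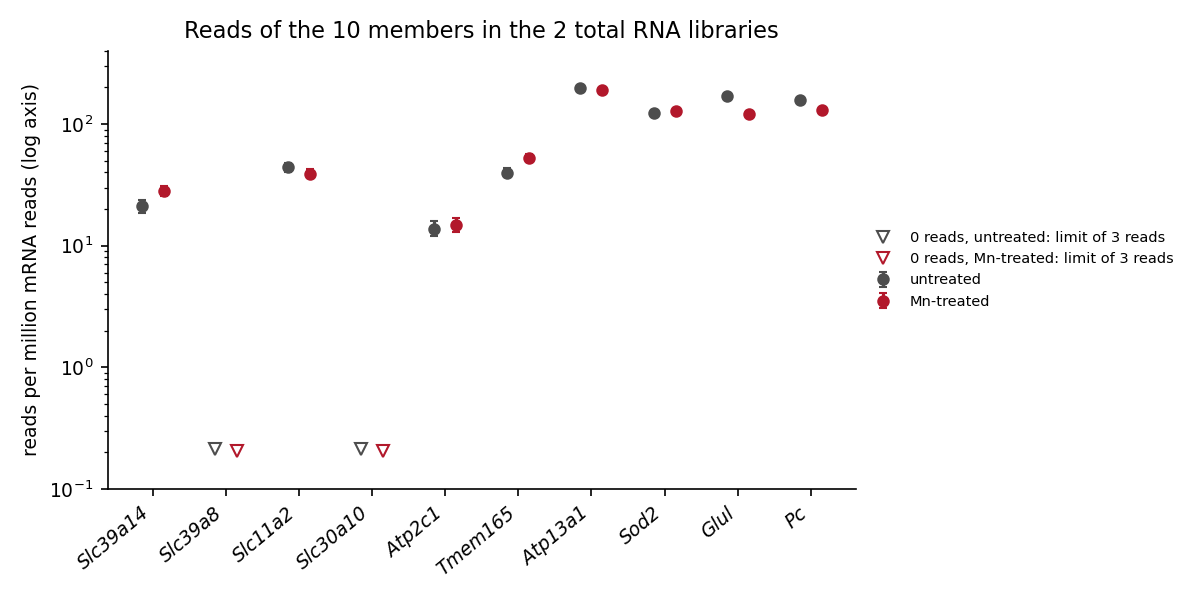
CPM (log axis) of the 10 manganese genes in the untreated (grey) and the Mn-treated (red) library, with exact Poisson 95% intervals as bars. Open triangles mark genes with 0 reads and stand at the limit of 3 reads, and the 8 filled pairs lie close together compared with the distance to these triangles.

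Of the importers, Slc39a14 was higher with manganese, Slc11a2 was slightly lower, and Slc39a8 had no reads. Slc39a14 (ENSMUSG00000022094) had 293 reads without and 412 with manganese, or 21.0 and 28.2 CPM. This is a ratio of 1.35 with an exact binomial 95% interval of 1.16 to 1.57, which covers counting error only, as do all intervals below. It was the highest of the 8 ratios and stood at percentile 68.6, with that share of all measured genes below it. Slc11a2 (ENSMUSG00000023030) had 616 and 569 reads, or 44.1 and 39.0 CPM, a ratio of 0.884 [0.787 to 0.992]. The log2 ratios of these importers differed by 0.61 [0.33 to 0.88], a difference that no scaling of the libraries can move. Both genes had fractional estimated counts, which makes their values less certain. Slc39a14 was at 0.21 in the authors' deposited table against 0.43 from counts. That table has Slc11a2 at -0.26 against -0.18 from counts.

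Slc39a8 (ENSMUSG00000053897) had 0 reads in each library, which allows a share of up to 2.15e-05% of the mRNA reads untreated and 2.05e-05% with manganese. The exporter Slc30a10 (ENSMUSG00000026614) likewise had 0 reads in both, with the same limits. Reads were thus found for the importers Slc39a14 and Slc11a2, and none were detected at this depth for the one exporter among the 10 genes, with or without manganese. That holds for the 10 genes only, and other manganese carriers are described below. No fold is given for them, since both libraries lie under the limit.

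The promoters of these undetected genes are shown with those of Glul and Pc, the genes with the lowest ratios. The sequences are RefSeq promoter windows on GRCm38.p6, which is not the mm9 build named in the submitters' processing notes. Each runs 5′ to 3′ on the gene's strand and covers the 250 bases before the start, and 8 of the 10 genes had such a window, some of them more than one. Slc30a10 is chr1:185454598-185454847 on the plus strand, and Slc39a8 is the second of 2 windows, chr3:135825407-135825656 on the plus strand. Glul is chr1:153899679-153899928 on the plus strand, and Pc is the first of 2 windows, chr19:4510222-4510471 on the plus strand. Capitals mark matches, on either strand, to 4 motifs: the metal response element core as TGCGCNC or TGCACNC, the antioxidant response element core TGACNNNGC and the hypoxia response element core ACGTG.
Slc30a10: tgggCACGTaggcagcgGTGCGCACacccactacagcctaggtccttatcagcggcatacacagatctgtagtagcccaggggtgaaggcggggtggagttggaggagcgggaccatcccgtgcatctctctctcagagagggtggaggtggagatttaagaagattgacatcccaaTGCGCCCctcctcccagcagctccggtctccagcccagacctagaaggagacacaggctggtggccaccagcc
Slc39a8: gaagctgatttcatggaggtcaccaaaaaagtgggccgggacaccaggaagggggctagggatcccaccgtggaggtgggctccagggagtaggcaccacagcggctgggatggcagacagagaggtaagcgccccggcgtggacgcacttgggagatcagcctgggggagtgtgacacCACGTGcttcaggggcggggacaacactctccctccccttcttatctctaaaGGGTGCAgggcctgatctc
Glul: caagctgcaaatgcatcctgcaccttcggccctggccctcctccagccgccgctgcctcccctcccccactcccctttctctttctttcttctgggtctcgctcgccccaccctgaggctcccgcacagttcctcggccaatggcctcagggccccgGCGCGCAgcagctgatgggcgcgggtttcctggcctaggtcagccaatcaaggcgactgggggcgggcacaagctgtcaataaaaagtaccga
Pc: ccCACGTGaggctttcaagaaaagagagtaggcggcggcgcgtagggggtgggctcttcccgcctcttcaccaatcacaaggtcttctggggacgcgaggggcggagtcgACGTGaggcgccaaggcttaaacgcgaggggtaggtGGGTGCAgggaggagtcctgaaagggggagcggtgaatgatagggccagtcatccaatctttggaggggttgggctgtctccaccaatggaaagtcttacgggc

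Slc30a10 held 3 matches to TGCGCNC, 233, 232 and 73 bases before the start, of which the first 2 overlap on opposite strands. It also held 1 match to ACGTG. Of all 32851 promoter windows of this length, 12.5% held TGCGCNC at least once and 0.679% at least 3 times. Glul held 1 match to TGCGCNC, 93 bases before the start. TGCACNC was matched once in the Slc39a8 window shown and once in the Pc window shown, and 10.4% of all windows held it. Those windows held ACGTG 2 and 3 times, in each case with 2 of the matches being the strands of 1 CACGTG, and 16.6% of all windows held that motif. The other Slc39a8 window held 1 match to TGACNNNGC, present in 10.2% of all windows. The windows of Tmem165, Atp13a1 and Sod2 held none of the 4 motifs, and 1 of 2 Atp2c1 windows held 1 TGCGCNC and 1 ACGTG. A match describes letters in the window and not a bound site.

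Of the genes of the Golgi and the endoplasmic reticulum, Tmem165 was higher with manganese. With column totals, Atp2c1 and Atp13a1 were not distinguishable from equal within counting error. Tmem165 (ENSMUSG00000029234) had 555 and 765 reads, or 39.7 and 52.4 CPM, a ratio of 1.32 [1.18 to 1.47]. Atp2c1 (ENSMUSG00000032570) had 193 and 216 reads, or 13.8 and 14.8 CPM, a ratio of 1.07 [0.878 to 1.31]. On the log2 scale this is 0.10, which became -0.08 with scaling to the median ratio of all measured genes. Atp13a1 (ENSMUSG00000031862) had 2777 and 2762 reads, or 198.8 and 189.1 CPM, a ratio of 0.951 [0.902 to 1.00]. Its log2 ratio was -0.07 [-0.15 to 0.005] with column totals. With that median-ratio scaling it was -0.25, below this interval, so its reading depended on the scaling. Tmem165 thus exceeded Atp13a1 by 0.47 [0.29 to 0.65] on the log2 scale. Its difference from Atp2c1, the pump that shares its compartment, was 0.30 [-0.03 to 0.63], and the interval includes 0. The counts of Atp2c1 were fractional, and this gene is at 0.26 in the authors' deposited table against 0.10 from counts. Tmem165 is also at 0.26 in the authors' deposited table, below the 0.40 from its whole counts. With that median-ratio scaling Tmem165 was at 0.22, above 0 but below its interval of 0.24 to 0.56 with column totals.

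The manganese enzymes differed from each other. Sod2 was close to equal, while Pc and Glul were lower with manganese. Sod2 (ENSMUSG00000006818) had 1723 and 1884 reads, or 123.3 and 129.0 CPM, a ratio of 1.05 [0.979 to 1.12]. Its sign depended on the measure, since it was -0.03 in the authors' deposited table and -0.12 with that median-ratio scaling. Pc (ENSMUSG00000024892) had 2194 and 1891 reads, or 157.0 and 129.5 CPM, a ratio of 0.824 [0.775 to 0.877]. Glul (ENSMUSG00000026473) had 2374 and 1780 reads, or 169.9 and 121.9 CPM, a ratio of 0.717 [0.674 to 0.763]. That is 1.39-fold lower and stands at percentile 8.58 of all measured genes. Glul and Pc had whole counts, and the authors' deposited table has them at -0.52 and -0.26 against -0.48 and -0.28 from counts. Glul was below Sod2 by a log2 difference that is 0.54 [0.41 to 0.68] when taken as Sod2 minus Glul. Pc minus Glul was 0.20 [0.07 to 0.33], so Glul was also below Pc beyond counting error.

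**Figure D2:**
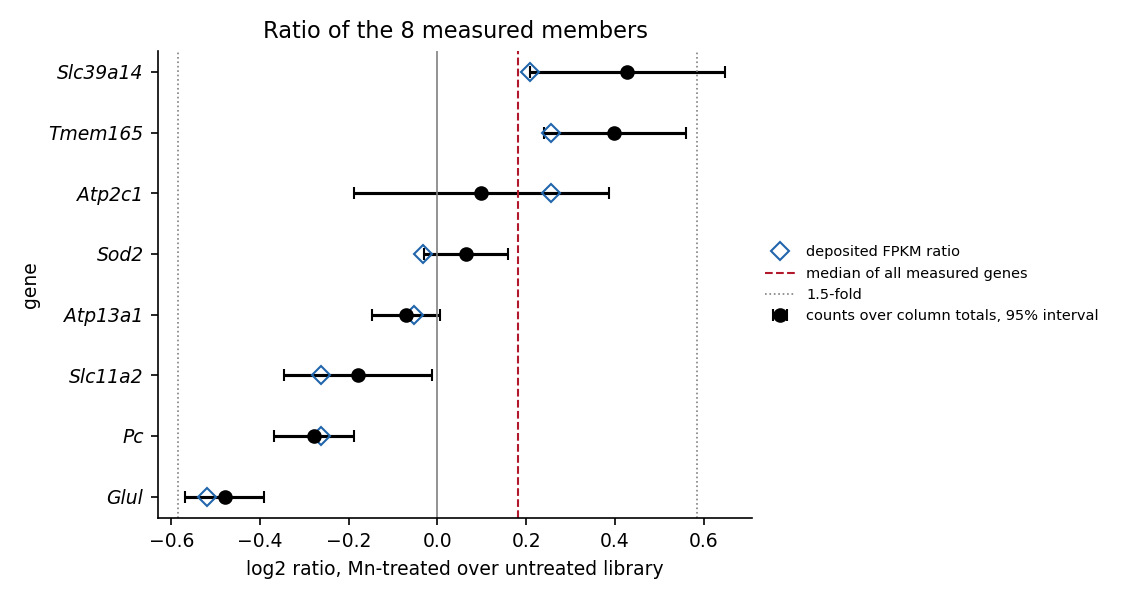
Log2 ratio of the Mn-treated over the untreated library for the 8 measured genes, from counts (black, with 95% intervals of counting error) and from the deposited FPKM values (blue diamonds). The dashed line is the median of all 11872 measured genes at 0.18 and the dotted lines mark 1.5-fold, and all 8 black points lie between the dotted lines, with Slc39a14 and Tmem165 above the dashed line.

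In the order of ratios, Slc39a14 stood first, followed by Tmem165, Atp2c1, Sod2, Atp13a1, Slc11a2, Pc and Glul. Of the 7 neighbouring pairs in this order, 5 had a difference whose interval included 0. The exceptions were Sod2 over Atp13a1, by 0.14 [0.01 to 0.26], and Pc over Glul. The intervals of Slc39a14 and Tmem165 lay wholly above 0, those of Slc11a2, Pc and Glul wholly below, and those of the other 3 included it. Against the median of all genes, the intervals of 2 genes lay wholly above and those of 5 wholly below. With scaling to the median ratio, which puts the middle gene at 0, Glul came to -0.66, or 1.58-fold lower. It was then 1 of the 8 past 1.5-fold, where 11.3% of all measured genes were lower by that much and 13.4% higher.

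Levels of different genes were compared per transcript length, with the authors' deposited FPKM. In untreated cells Glul was the highest of the 10 at 60.3 FPKM, which is percentile 92.7 of the measured genes. It was followed by Sod2 at 36.6, Atp13a1 at 30.7, Pc at 22.6, Slc11a2 at 17.4, Tmem165 at 15.8, Atp2c1 at 5.30 and Slc39a14 at 3.15 FPKM. The median of all measured genes was 4.81 FPKM, so 7 of the 8 lay above it and the importer Slc39a14 lay below, at percentile 40.2. The counting intervals of Slc11a2 [16.1 to 18.9] and Tmem165 [14.5 to 17.2] overlapped, and those of the other neighbours in this order did not.

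With manganese Glul was at 42.1, Sod2 at 35.8 and Atp13a1 at 29.6 FPKM, in the same order as before. The distance between Glul and Sod2 was smaller. Tmem165 and Pc were both at 18.9 FPKM, ahead of Slc11a2 at 14.5. Tmem165 was thus no longer below Slc11a2, and their counting intervals [17.5 to 20.2] and [13.4 to 15.8] did not overlap. Atp2c1 was at 6.33 and Slc39a14 at 3.64 FPKM, against a median of 5.63 for all measured genes. Slc39a14 remained the lowest detected gene of the 8 in both libraries, at percentile 38.9 with manganese.

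**Figure D3:**
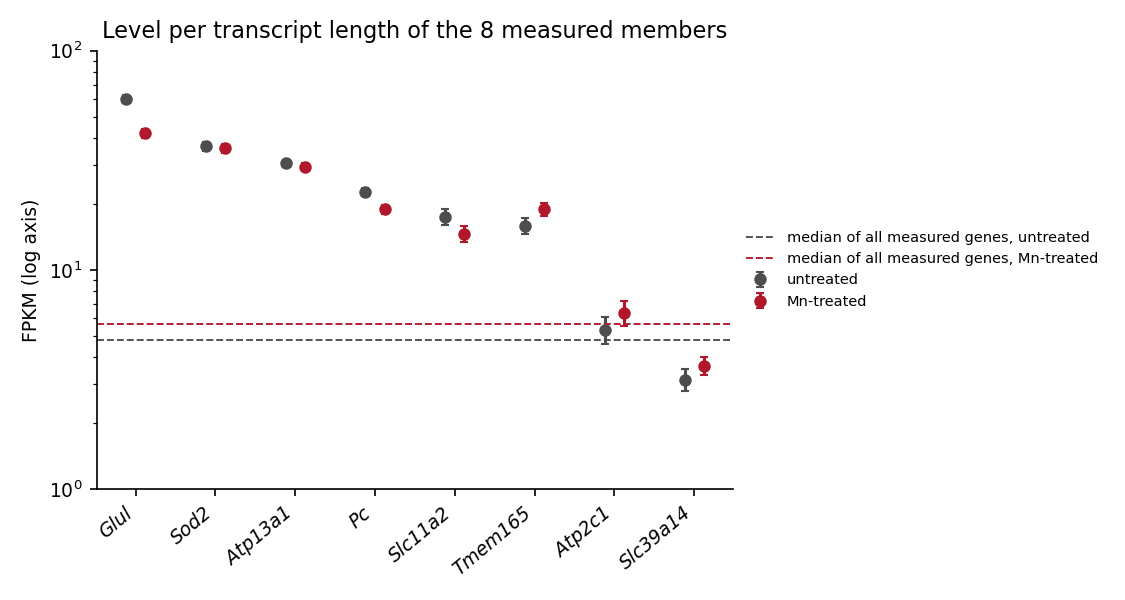
FPKM (log axis) of the 8 measured genes in the untreated (grey) and the Mn-treated (red) library, ordered by the untreated level, with counting intervals of 95% as bars. Dashed lines are the medians of all measured genes, 4.81 and 5.63 FPKM, and Slc39a14 is the one gene below them in both libraries.

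The count ratio and the FPKM ratio were not equal for every gene, since FPKM also depends on the transcript length assigned in each library. For Slc39a14 the log2 ratio from counts exceeded that from FPKM by 0.22, percentile 89.6 of the measured genes, whose median difference was -0.02. For Tmem165 the excess was 0.14, for Sod2 0.10 and for Slc11a2 0.08. Atp2c1 had the opposite sign, at -0.16. For Atp13a1, Pc and Glul the 2 ratios lay within 0.04 of each other. The sources used here do not give the transcript lengths, and their part in these differences was not tested.

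Back-splice junction reads gave a second readout of the same libraries. Of 2253 circular RNAs, 1 had one of the 10 genes as its host, an exonic circRNA of Slc11a2 of 918 spliced bases. It had 2 junction reads in the untreated library, with an exact Poisson interval of 0.242 to 7.22, and 0 in the Mn-treated library, with an upper limit of 3.69. At this depth no difference was detectable.

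The surroundings of the 10 genes were described with 10 lists of related genes, given as counts past 1.5-fold with medians beside the 0.18 of all genes. Of all measured genes, 21.6% were higher and 5.97% lower by 1.5-fold, or 13.4% and 11.3% with median-ratio scaling. Of the other manganese carriers and entry routes, 4 of 9 measured genes were higher by 1.5-fold and 0 lower, with a median of 0.54 (3 and 0 with median-ratio scaling). Trf, transferrin, had 2 and 18 reads and the highest log2 ratio at 2.82 [1.04 to 6.26]. Slc40a1, also past 1.5-fold, had 26 and 88 reads, at 1.68 [1.05 to 2.39] on whole counts and 1.73 in the authors' deposited table. Tfrc, the receptor that takes up transferrin with its metal, had 244 and 404 reads, at 0.66 on fractional counts. Atp13a2, a lysosomal ATPase linked to resistance to manganese, had 4165 and 4722 reads and the lowest value, 0.12, which was -0.07 with median-ratio scaling.

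Among the families of the transporters, 2 of 9 measured ZIP importers were higher by 1.5-fold and 0 lower, with a median of 0.28. Slc39a10 had 353 and 731 reads, at 0.99 [0.80 to 1.17], and Slc39a6 had 277 and 563, at 0.96 [0.75 to 1.17]. Both are plasma membrane zinc importers, and both ratios were larger than that of Slc39a14. Slc39a1 was lowest at -0.26. Of 7 measured ZnT exporters, the family of Slc30a10, 0 were higher and 1 lower, with a median of 0.15, or -0.03 with median-ratio scaling. Slc30a5 had 674 and 948 reads, at 0.43, and Slc30a4 had 38 and 16, at -1.29 on fractional counts. Of 8 measured calcium and P5-type ATPases, the families of Atp2c1 and Atp13a1, 3 were higher and 0 lower, with a median of 0.30 (2 and 0 with median-ratio scaling). Atp2b4, which pumps calcium out of the cell, had 345 and 1145 reads, at 1.67 [1.49 to 1.84] on fractional counts. Atp2b1, another such pump, had 479 and 761, at 0.60. Atp2c2, the close relative of Atp2c1 that is also in the list of carriers, had 3 and 20 reads, at 2.49 [0.92 to 5.07]. Atp2b3 was lowest at 0.06, or -0.13 with median-ratio scaling.

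**Figure D4:**
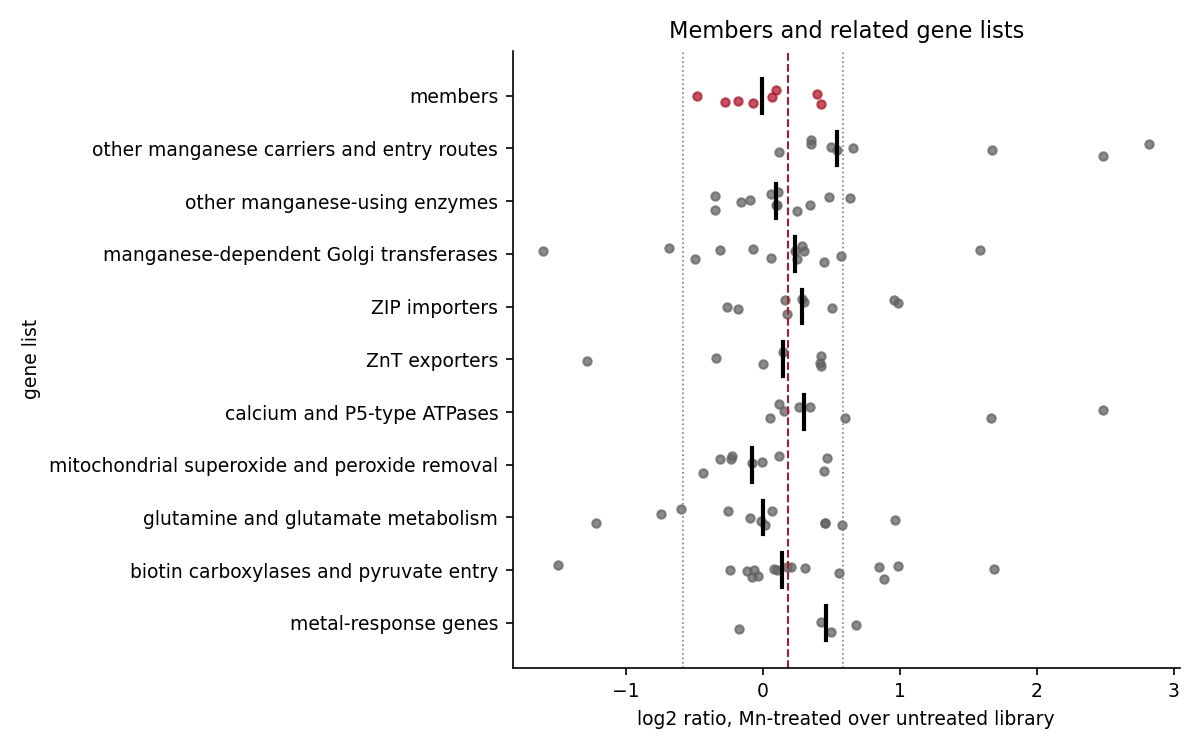
Log2 ratio of the Mn-treated over the untreated library for every measured gene of the 8 manganese genes (red, top row) and of 10 related lists (grey), with vertical bars at the list medians, the dashed line at the median of all genes and dotted lines at 1.5-fold. The red points lie inside the dotted lines, while the Golgi transferases and the biotin list have points beyond both of them.

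Of 13 measured Golgi transferases that use manganese, 1 was higher and 2 lower by 1.5-fold and 10 lay within it, where 72.4% of all measured genes lay within 1.5-fold. The list had a median of 0.23, and 1 was higher and 3 lower with median-ratio scaling. B4galt3, a galactosyltransferase, had 42 and 133 reads, at 1.59 [1.09 to 2.14]. Rfng and Lfng, which add N-acetylglucosamine to Notch, had 283 and 97 reads, at -1.60 [-1.96 to -1.27], and 731 and 476 reads, at -0.68 [-0.85 to -0.51]. The counts of B4galt3 and Rfng were fractional. Of 12 other measured manganese-using enzymes, 1 was higher and 0 lower, with a median of 0.10 (0 and 0 and a median of -0.08 with median-ratio scaling). The phosphatase Ppm1a had 779 and 1265 reads, at 0.64 on fractional counts, and Ppm1g had 2454 and 2010, at -0.35.

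Other genes of superoxide and peroxide removal were, like Sod2, within 1.5-fold with column totals. Of 9 measured genes of superoxide and peroxide removal, 0 were higher and 0 lower, with a median of -0.08, between Cat at 0.47 and Txn2 at -0.44. With median-ratio scaling 1 was lower, Txn2 at -0.62 on fractional counts. Around Glul, 3 of 12 measured genes of glutamine and glutamate metabolism were lower by 1.5-fold, with a median of 0.001, or -0.18 with median-ratio scaling. Gls2, a glutaminase, which runs the reaction opposite to Glul, had 234 and 105 reads, at -1.22 [-1.57 to -0.88] on fractional counts. Slc38a3, a glutamine carrier, had 135 and 84 reads, at -0.75, and Oat, ornithine aminotransferase, had 819 and 565, at -0.60.

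Around Pc, 4 of 16 genes of biotin carboxylases and pyruvate entry were higher and 1 lower, with a median of 0.14, or -0.04 with median-ratio scaling. Acaca, the biotin carboxylase that starts fatty acid synthesis, had 187 and 631 reads, at 1.69 [1.45 to 1.93], but only 0.34 in the authors' deposited table, on fractional counts. Mccc1, a carboxylase subunit of leucine breakdown, had 80 and 155 reads, at 0.89, and the malic enzyme Me1 had 880 and 1657, at 0.85. Pccb, a subunit of propionyl-CoA carboxylase, had 217 and 80 reads, at -1.50 [-1.89 to -1.13] on fractional counts. Of 4 measured metal-response genes, 1 was higher and 0 lower, with a median of 0.46 (0 and 0 with median-ratio scaling). Mtf1, the transcription factor that binds metal response elements, had 93 and 156 reads, at 0.68 [0.30 to 1.07], whereas the authors' deposited table has it at -0.11. Mt3, a metallothionein of the brain, had 110 and 102 reads, at -0.17. The metallothioneins Mt1, with 0 and 4 reads, and Mt2, with 0 in both libraries, were not measured.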

How the data were processed

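RNA was isolated with Trizol and ribosomal RNA was removed, per the labels' protocols. The build mm9 and the tools fastp 0.18.0, Bowtie2 and StringTie are named, without role or order, per the submitters' processing notes. The authors deposited an mRNA table with estimated counts, not whole for 13.3% of genes, and FPKM values, and per the file headers a log2 fold change, which is the ratio of FPKM values with 0.001 in place of 0. The authors also deposited a circRNA table with whole junction read counts. The sources used here name no counting program or annotation. The lncRNA and small RNA tables were not used.

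Estimated counts were rounded. The log2 ratio is Mn-treated over untreated, from counts plus 0.5 over column totals, and printed ratios without log2 omit the 0.5. Intervals are exact binomial (Clopper-Pearson) for ratios, exact conditional for differences between genes and exact Poisson for levels, all at 95%. FPKM intervals scale the Poisson interval of the reads. Without molecular identifiers, PCR copies cannot be told from separate molecules, and the intervals and floors (3 counts) therefore cover counting error only. Genes counted as measured from 20 reads over both libraries. For a symbol with more than 1 row, the one with most reads was taken. Alternatives were median-ratio scaling, TMM from edgeR 4.0.16, the deposited ratio, 1 added to counts, unrounded counts, minimums of 1 and 100 reads and a threshold of 2-fold. The members and lists were chosen with earlier results of these data known. Every member is named, and of each list the highest and lowest gene and each gene past 1.5-fold that had 100 or more reads in either library. Slc40a1, with fewer reads, is named in addition. A single ratio defines no pattern, so no gene was named for likeness. Single values of 2 listed genes are not reported here. Ratio and interval steps were tested on simulated counts. Python 3.11.15, scipy 1.17.1 and R 4.3.3 were used.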

Additional observations from a re-analysis of the deposited data

How the results depend on the processing

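The number of manganese genes at least 1.5-fold lower was 0 with column totals and 1, Glul, with median-ratio or TMM scaling, and the number higher was 0 in every setting run. The median log2 ratio of the 8 genes was -0.004 with column totals, -0.19 with median-ratio scaling and -0.18 with TMM. These scalings lower every log2 ratio by 0.18 by construction. Under either of them 6 of the 8 single ratios moved beyond their counting intervals, and Atp2c1 and Sod2 changed sign, to -0.08 and -0.12 with median-ratio scaling and to -0.08 and -0.11 with TMM. By the authors' deposited ratios only Sod2 moved so far, and it also changed sign there, to -0.03. Adding 1 to counts or leaving them unrounded moved 0 of 8 beyond their intervals. Minimums of 1 and 100 reads and a threshold of 2-fold left both counts at 0. For the related lists, settings added after seeing the data moved 3 of 20 counts by over 1.5 times with median-ratio scaling, 3 with TMM and 7 with the deposited ratios. By the last, 2 genes of the biotin list were higher, against 4 from counts. No paired analysis was possible because each condition had 1 library. Depth limits what can be said of Slc39a8, Slc30a10 and the circRNA of Slc11a2.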

Other observations

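The annotation in the mRNA table marks genes by their known relation to manganese, and 4 of its terms were looked up after the data had been seen. Of the 10 genes above, 5 carried at least 1 of these terms, among them Slc11a2, Atp2c1, Sod2 and Glul under manganese ion binding. For all the terms below, the shares over all measured genes are 21.6% higher and 5.97% lower by 1.5-fold, or 13.4% and 11.3% with median-ratio scaling. Of 48 measured genes of manganese ion binding, 6 were at least 1.5-fold higher with manganese and 0 lower, with a median log2 ratio of 0.17 against 0.18 for all genes (3 and 1 with median-ratio scaling). The count of higher genes was thus no excess over the share of all genes. Extl2, a glycosyltransferase, was the highest of them with 100 and 192 reads, at 0.87 [0.52 to 1.24], and Glul was the lowest. Papola, a poly(A) polymerase, had 471 and 847 reads, at 0.78 [0.62 to 0.95].

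Under manganese ion transport, 1 of 7 measured genes was higher and 0 lower. With median-ratio or TMM scaling 0 were past 1.5-fold, and 3 were higher by the authors' deposited table. The gene higher with column totals was Trpm2, a cation channel, with 120 and 199 reads, at 0.66 [0.33 to 1.00], and Slc11a2 was the lowest. Of 7 measured genes of the cellular response to manganese, 2 were higher and 0 lower, with a median of 0.29 (also 2 and 0 with median-ratio scaling). App, the amyloid precursor, had 1747 and 3543 reads, at 0.96 [0.87 to 1.04], and Th, tyrosine hydroxylase, had 88 and 173, at 0.91 [0.53 to 1.30]. Of 6 measured genes of the response to manganese, 1 was higher and 0 lower, with a median of -0.06 (also 1 and 0 with median-ratio scaling, and 0 and 0 by the authors' deposited table).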
